A study of Mus musculus with 12 samples.

Results

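The genes described here are those of antigen presentation, the display of peptides on major histocompatibility complex (MHC) molecules to T cells, in 6 brain regions of mice with and without interleukin-18. All probes whose accession names B2m, H2-K1, H2-D1, H2-Aa, H2-Ab1, H2-Eb1, Cd74, Tap1, Psmb8 or Psmb9 were taken, whatever their values. Of these 10 genes, 9 were measured, by 14 probes, among 33390 genes and unnamed transcripts on 41174 probes. No value was assigned to H2-K1. B2m and Psmb8 had 2 probes each, H2-Aa 2, H2-Ab1 3, and the other 5 genes 1 each. Where a gene had several probes, the brightest on average represented it.

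Class I molecules are built from a heavy chain, such as the products of H2-K1 and H2-D1, and the light chain beta-2-microglobulin, the product of B2m. They carry peptides that the proteasome has cut and that the TAP transporter, of which the Tap1 product is a subunit, has moved into the endoplasmic reticulum. Psmb8 and Psmb9 encode catalytic subunits of the immunoproteasome, the form of the proteasome that interferon gamma induces. Class II molecules are heterodimers: the H2-Aa and H2-Ab1 products are the chains of I-A, and the H2-Eb1 product is the beta chain of I-E. Cd74, the invariant chain, guides class II molecules through the cell and blocks their peptide groove. In the healthy brain class II molecules are found mainly on macrophages and dendritic cells of the meninges, the choroid plexus and the perivascular spaces, while resting parenchymal microglia hold little. Interleukin-18 is a cytokine known for inducing interferon gamma in T and natural killer cells.

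The mice were C57BL/6 males of 12 weeks, wild type (WT) or IL-18 KO. Their brains were perfused with cold saline and cut into coronal slices, from which 6 regions were taken: olfactory bulb, hypothalamus, amygdala, prefrontal cortex, hippocampus and striatum. Each of the 12 arrays held 1 region of 1 genotype, as a pool of equal RNA from 5 mice, so that each group had 1 array and the spread between mice is unknown. A level below is log2 of the processed spot signal minus the 75th percentile of that array, and a difference is KO minus WT on that log2 scale. Levels of different probes are not comparable with each other. Whether fewer cells of a type or less RNA per cell lies behind a lower level cannot be told apart in such tissue RNA.

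Some facts of the arrays touch every result. Il18 itself was lower on all 6 KO arrays, by a mean difference of -4.36 (SE 0.161; limma adjusted p = 0.000615), between -5.10 and -3.73. The striatum arrays were the dimmest, with a 75th percentile of 208 (WT) and 272 (KO) intensity units against 502 to 768 elsewhere. The array labelled amygdala WT did not resemble its partner most. Over all genes its nearest array was hypothalamus WT (r = 0.994), ahead of amygdala KO (r = 0.980). Amygdala KO was nearest to hypothalamus KO (r = 0.985), also ahead of its partner. Of 11527 bright genes, 16 were 2-fold apart between hypothalamus KO and WT and 311 between amygdala KO and WT. Between amygdala WT and hypothalamus WT 5 were. The hypothalamic peptide genes went the same way: Pmch, which encodes melanin-concentrating hormone, stood at 6.02 on amygdala WT, 5.92 on hypothalamus WT, 5.93 on hypothalamus KO and -1.64 on amygdala KO. Means over the regions are therefore given with and without the amygdala pair. Every WT array lay in place 1 of its slide and every KO array in place 3, so place and genotype cannot be told apart. Prefrontal cortex and hippocampus were scanned on 1 day and the other 4 regions on another.

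The sequences below are the 250 bases before the RefSeq start (assembly GRCm38.p6) of the class I genes B2m and H2-D1 and the class II genes H2-Aa and H2-Eb1, shown because the levels of these groups took different courses. Capitals mark matches, on either strand, to 5 motifs: CCAAT (the Y box core), TTCNNNGAA (the gamma-activated site), the interferon-stimulated response element core (GAAA, 2 bases of any kind, GAAA), an X box pattern of class II promoters (CTAG, 2 bases of any kind, AC, 1 of any kind, GATG) and an NF-kappaB site (GGG, 2 bases of any kind, TTTCC). No 2 of the matches marked here overlapped. The windows lie at chr2:122147437-122147686, plus strand for B2m, chr17:35262844-35263093, plus strand for H2-D1, chr17:34287824-34288073, minus strand for H2-Aa, and chr17:34305617-34305866, plus strand for H2-Eb1.
B2m: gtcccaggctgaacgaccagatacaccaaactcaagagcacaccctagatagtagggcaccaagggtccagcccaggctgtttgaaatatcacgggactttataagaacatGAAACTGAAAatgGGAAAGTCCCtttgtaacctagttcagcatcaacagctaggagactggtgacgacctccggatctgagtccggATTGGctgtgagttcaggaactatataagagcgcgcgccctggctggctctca
H2-D1: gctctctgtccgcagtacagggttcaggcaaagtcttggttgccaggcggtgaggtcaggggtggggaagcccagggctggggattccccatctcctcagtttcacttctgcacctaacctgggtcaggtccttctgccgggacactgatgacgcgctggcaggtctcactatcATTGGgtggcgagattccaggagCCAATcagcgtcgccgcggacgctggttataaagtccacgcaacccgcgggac
H2-Aa: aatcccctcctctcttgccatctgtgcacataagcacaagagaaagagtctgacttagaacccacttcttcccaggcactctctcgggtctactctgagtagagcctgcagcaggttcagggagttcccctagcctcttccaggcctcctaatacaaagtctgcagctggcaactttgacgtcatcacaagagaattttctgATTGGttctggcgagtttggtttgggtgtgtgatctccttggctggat
H2-Eb1: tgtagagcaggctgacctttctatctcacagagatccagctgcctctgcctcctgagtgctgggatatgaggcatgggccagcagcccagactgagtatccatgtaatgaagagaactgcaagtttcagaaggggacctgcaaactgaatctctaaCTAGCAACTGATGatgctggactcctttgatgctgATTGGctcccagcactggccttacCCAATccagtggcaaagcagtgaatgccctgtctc

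All 4 windows held a CCAAT match, on 1 or both strands. H2-Eb1 held the X box pattern, 94 bases before the start, upstream of its 2 CCAAT matches at 59 and 35 bases. B2m held the interferon-stimulated response element core 139 bases and the NF-kappaB site 126 bases before the start, and its CCAAT match lay at 53 bases. Windows were found for 8 of the 10 genes used here; those of H2-Ab1 and Cd74 are not used here. Of these 8, 7 held a CCAAT match, all but Psmb8, against 33.8% of 32817 windows of all genes. The X box pattern was in 1 of the 8, against 0.0548% of all windows. The interferon-stimulated response element core was in 1 (B2m) against 2.97%, the NF-kappaB site in 1 (B2m) against 1.41%, and the gamma-activated site in 1 (Psmb8) against 7.01%. Tap1 and Psmb9 face away from each other, their windows share 225 bases, and their CCAAT match is the same site counted for both. A match describes letters in this window and is not a measured binding site.

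Across the 6 regions none of the 9 antigen presentation genes differed between KO and WT beyond the spread between regions. The mean differences ran from -0.26 for H2-Aa to 0.34 for Tap1. B2m (0.063) and H2-D1 (0.063) were near 0, and the class II genes and Cd74 lay between -0.26 and -0.14. Without the amygdala pair the means of the class II genes were -0.085 (H2-Aa), -0.13 (H2-Ab1) and -0.045 (H2-Eb1), and that of Cd74 was -0.052, so 1 doubted pair carried much of each. The same step took H2-D1 to 0.17, B2m to 0.088, Tap1 to 0.33, Psmb8 to 0.026 and Psmb9 to -0.045, and none of the 9 passed. In the limma fit with region as a block, 0 of 9 genes had an adjusted p under 0.05, against 10 of 24860 genes tested (0.0402%). By probe the count was 0 of 14, against 0.0451% of all probes. An unadjusted p under 0.05 was reached by 0 of 9 members and by 23.3% of all genes tested.

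**Figure D1:**
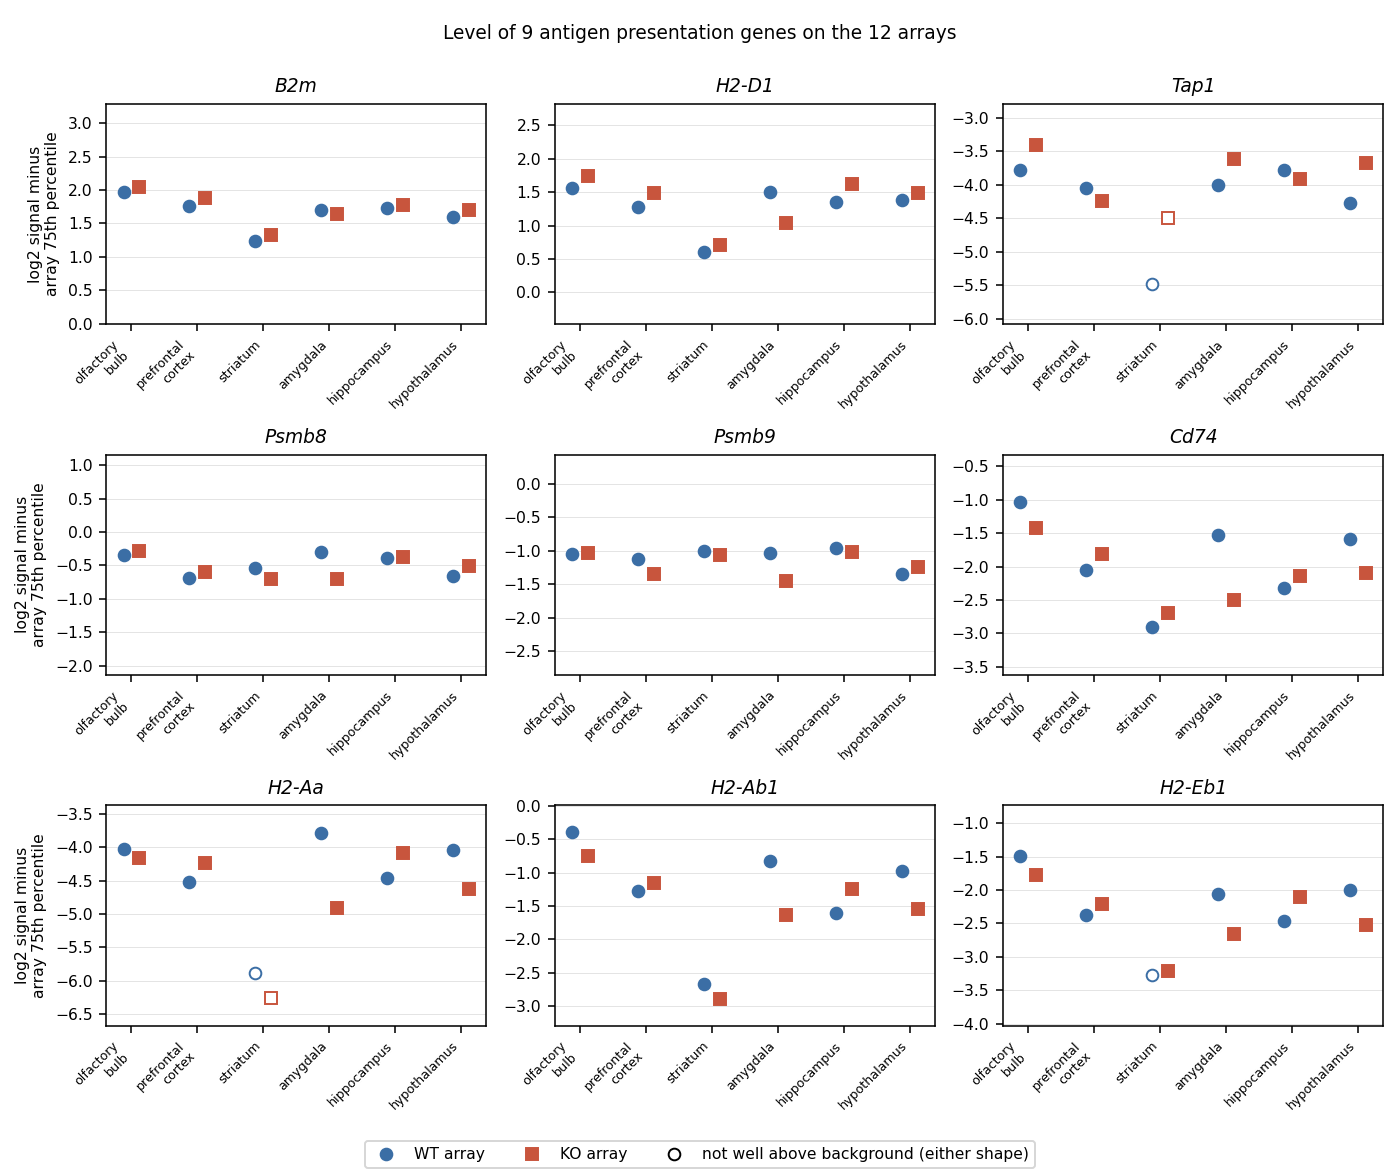
Level of each of the 9 measured genes on each of the 12 arrays (log2 processed signal minus the array's 75th percentile; every panel spans the same log2 range), by region, with circles for WT and squares for KO. H2-Aa, H2-Ab1, H2-Eb1 and Cd74 have their lowest values in striatum, where neither H2-Aa value is well above background (open symbols). On the WT side they are high in olfactory bulb, amygdala and hypothalamus, while Psmb8 and Psmb9 vary little.

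The class I light chain B2m was well above background on all 12 arrays. Its WT levels were 1.97 in olfactory bulb, 1.60 in hypothalamus, 1.70 in amygdala, 1.76 in prefrontal cortex, 1.73 in hippocampus and 1.24 in striatum. Its KO levels were 2.04, 1.70, 1.64, 1.89, 1.77 and 1.32 in the same order. Within any region the genotypes lay closer together than olfactory bulb lay to striatum. KO was higher in 5 of 6 regions, all but amygdala, yet each difference was between -0.059 and 0.13. The mean difference was 0.063 (SE 0.047, 95% interval -0.047 to 0.17; limma adjusted p = 0.441). The second B2m probe, with 10 spots per array, gave a mean difference of 0.021 (SE 0.055), with KO lower in amygdala by a difference of -0.16. Under median scaling the amygdala difference of B2m was 0.15 in place of -0.059.

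The class I heavy chain H2-D1 was above background on every array too. Its WT levels were 1.57 in olfactory bulb, 1.38 in hypothalamus, 1.50 in amygdala, 1.28 in prefrontal cortex, 1.35 in hippocampus and 0.61 in striatum, and its KO levels in that order were 1.74, 1.48, 1.04, 1.48, 1.62 and 0.71. KO was higher in 5 regions, by differences of 0.099 to 0.26, and lower in amygdala, by a difference of -0.47. The mean difference was 0.063 (SE 0.101; limma adjusted p = 0.732). Among the antigen presentation genes H2-D1 had the smallest p for the amygdala difference against the mean of the other 5 regions (-0.64, SE 0.123, limma adjusted p = 0.125), which did not pass. Class I genes have near-identical copies, and a probe for H2-D1 may also bind their transcripts, so its level is uncertain in that sense.

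The class II genes and Cd74 went together within a region and apart between regions. The median of the 4 differences was -0.89 in amygdala, -0.54 in hypothalamus, -0.32 in olfactory bulb, 0.20 in prefrontal cortex and 0.36 in hippocampus. All 4 genes were lower on the KO array in olfactory bulb, amygdala and hypothalamus, and all 4 were higher in prefrontal cortex and hippocampus. In striatum 2 of the 4 were above background on both arrays, H2-Ab1 lower (-0.22) and Cd74 higher (0.22). Genes lower in KO by any amount made up 55.7% of all genes in amygdala, 50.1% in hypothalamus, 59.8% in olfactory bulb, 57.0% in prefrontal cortex, 48.0% in hippocampus and 51.9% in striatum. The amygdala and hypothalamus signs held for all 4 genes under median scaling, quantile normalization, normexp background and the mean of the probes. With the mean of the probes H2-Aa turned higher in olfactory bulb (0.069) and lower in hippocampus (-0.026), while the other 3 genes kept their signs there. In prefrontal cortex H2-Aa (-0.040) and H2-Eb1 (-0.068) turned lower with normexp background, as did Cd74 in striatum (-0.22).

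**Figure D2:**
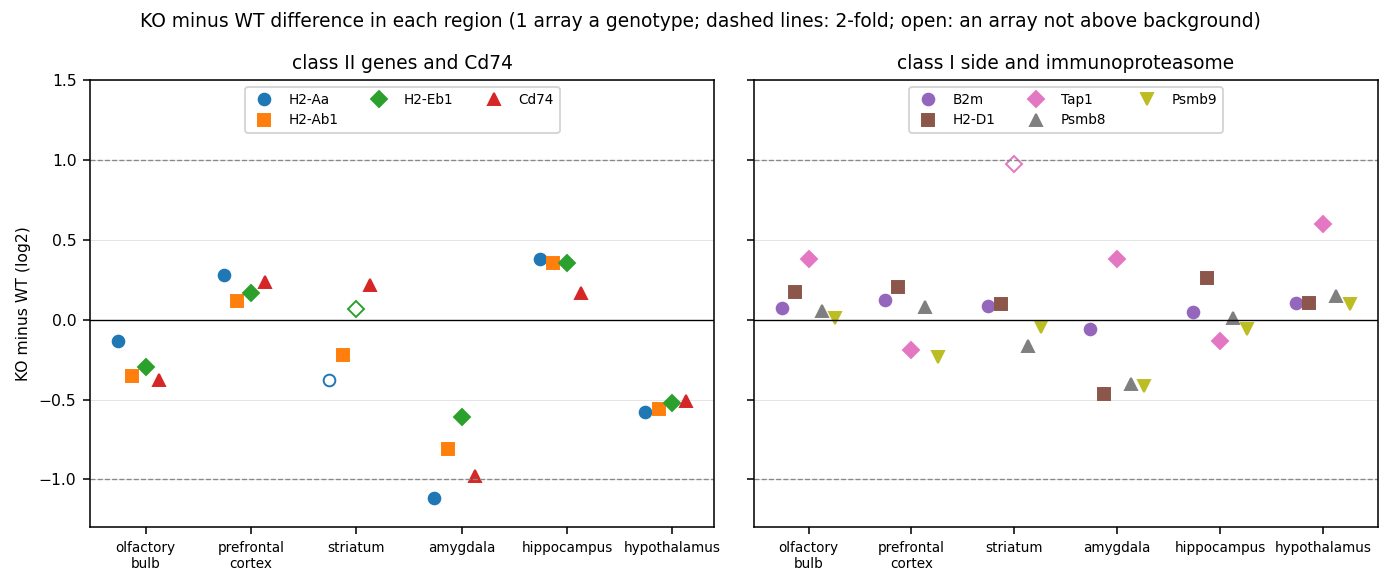
KO minus WT difference (log2) of each gene in each region, 1 array a genotype, with class II genes and Cd74 on the left and the other 5 genes on the right. Dashed lines mark 2-fold and open symbols a pair with at least 1 array not well above background; H2-Aa in amygdala (-1.12) is the filled symbol past a dashed line.

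H2-Ab1, the I-A beta chain, was above background on all 12 arrays with its brightest probe. WT levels were -0.40 in olfactory bulb, -0.98 in hypothalamus, -0.82 in amygdala, -1.27 in prefrontal cortex, -1.60 in hippocampus and -2.66 in striatum. KO levels in that order were -0.75, -1.54, -1.63, -1.16, -1.24 and -2.89. On the WT arrays olfactory bulb, amygdala and hypothalamus were the 3 highest, while on the KO arrays prefrontal cortex and hippocampus lay above amygdala and hypothalamus. The differences were -0.35 in olfactory bulb, -0.56 in hypothalamus, -0.81 in amygdala, 0.12 in prefrontal cortex, 0.36 in hippocampus and -0.22 in striatum. Their mean was -0.25 (SE 0.154; limma adjusted p = 0.368). The 10-spot probe of H2-Ab1 gave differences of -0.79 in amygdala, -0.38 in hypothalamus, 0.33 in prefrontal cortex and 0.29 in hippocampus, and the remaining, dim probe differed in sign in olfactory bulb (0.13).

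H2-Aa, the I-A alpha chain, was dim. Its WT levels were -4.03 in olfactory bulb, -4.05 in hypothalamus, -3.79 in amygdala, -4.52 in prefrontal cortex, -4.47 in hippocampus and -5.88 in striatum. Its KO levels were -4.16, -4.63, -4.90, -4.24, -4.08 and -6.26 in that order. Neither striatum array was well above background. H2-Aa in amygdala was 2.17-fold lower in KO and was the single 2-fold difference among the 9 genes in any region, where both arrays were above background; the share of all genes 2-fold apart was 6.86% in amygdala, 0.924% in olfactory bulb, 0.987% in hypothalamus, 4.33% in prefrontal cortex, 1.75% in hippocampus and 1.56% in striatum. That value fell short of 2-fold under each of the 4 alternatives tried, with differences of -0.90 (median scaling), -0.85 (quantile normalization), -0.51 (normexp background) and -0.88 (mean of the probes). The mean difference over the regions was -0.26 (SE 0.198; limma adjusted p = 0.460). The second H2-Aa probe differed in sign from the first in olfactory bulb (0.27) and hippocampus (-0.44) and gave -0.64 in amygdala.

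H2-Eb1, the I-E beta chain, was above background on 11 arrays, all but striatum WT. Its WT levels were -1.49 in olfactory bulb, -2.00 in hypothalamus, -2.05 in amygdala, -2.37 in prefrontal cortex, -2.47 in hippocampus and -3.28 in striatum, and its KO levels were -1.78, -2.52, -2.66, -2.21, -2.11 and -3.21. The order of the differences was that of H2-Ab1: lowest in amygdala (-0.61) and hypothalamus (-0.52), then olfactory bulb (-0.29), and highest in hippocampus (0.36). The mean difference was -0.14 (SE 0.142; limma adjusted p = 0.581).

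Cd74, the invariant chain, was above background on all 12 arrays. Its WT levels were -1.04 in olfactory bulb, -1.59 in hypothalamus, -1.52 in amygdala, -2.06 in prefrontal cortex, -2.31 in hippocampus and -2.91 in striatum, and its KO levels were -1.42, -2.10, -2.50, -1.81, -2.15 and -2.69. The widest gap was in amygdala, a difference of -0.98 or 1.97-fold. Hypothalamus (-0.51) and olfactory bulb (-0.38) were lower in KO too, and prefrontal cortex (0.24), striatum (0.22) and hippocampus (0.17) were higher. With normexp background the striatum difference turned to -0.22. The mean difference was -0.21 (SE 0.176; limma adjusted p = 0.507).

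The amygdala differences of the class II genes rest on the doubted WT array. Against hypothalamus WT, the amygdala WT array differed by 0.16 for H2-Ab1, -0.053 for H2-Eb1, 0.068 for Cd74 and 0.26 for H2-Aa. The amygdala KO array differed from hypothalamus KO by -0.090 for H2-Ab1, -0.14 for H2-Eb1, -0.40 for Cd74 and -0.28 for H2-Aa. For all 4 genes the amygdala and hypothalamus arrays of one genotype thus lay closer together than the KO and WT arrays of either region, and whether the amygdala and hypothalamus differences are separate observations was not tested. Without the amygdala pair, the hypothalamus pair and the olfactory bulb pair each still had all 4 genes lower. Tested against the mean of the other 5 regions, the amygdala difference was -1.03 for H2-Aa (limma adjusted p = 0.323), -0.92 for Cd74 (0.318), -0.68 for H2-Ab1 (0.451) and -0.56 for H2-Eb1 (0.518). No gene of the 9 passed in any region, against 0.266% of all genes in amygdala, 0.949% in striatum, 0.0121% in hippocampus and 0% in each of the other 3.

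Some cell type marker lists moved beside the class II genes in some regions, and others did not. The 8 measured choroid plexus markers, such as Ttr (transthyretin), were all lower on the KO array in amygdala (median -2.12) and hypothalamus (median -1.08), and 7 of 8 were higher in hippocampus (median 0.69). Ttr stood at 2.68 on amygdala WT and -0.023 on amygdala KO, 2.71 and 1.55 in hypothalamus, and 2.02 and 3.07 in hippocampus. The 8 meningeal fibroblast markers, such as Dcn (decorin), were all lower on KO in olfactory bulb (median -0.31), amygdala (-0.93) and hypothalamus (-0.78). In hippocampus 6 of 8 were lower (median -0.11), the opposite side to the class II genes there. The 4 measured ependyma markers were all lower on KO in amygdala (median -1.79) and all higher in hippocampus (0.22), but 2 of 4 were lower in hypothalamus (0.085). Of 6 oligodendrocyte markers 5 were lower in amygdala (-0.44) and 0 in hypothalamus (0.11). The 12 interferon responsive genes were all lower on KO in amygdala (-0.53), while in hypothalamus 5 of 12 were (0.029). Of 10 endothelium and pericyte markers 10 were lower in hippocampus (-0.13) and 3 in hypothalamus (0.17), the reverse of the class II genes there. In olfactory bulb 7 of 10 (-0.14) and in amygdala 6 of 10 (-0.080) were lower. These counts were near the shares of all genes lower there, 59.8% and 55.7%. In prefrontal cortex, where the class II genes were higher, medians were 0.0097 (choroid plexus), -0.036 (meningeal fibroblasts) and -0.070 (2 ependyma markers). Log2 of the summed signal of the choroid plexus list ranged from -0.20 to 4.21 over WT arrays and from -0.39 to 4.35 over KO arrays. That of the meningeal fibroblast list ranged from 3.09 to 4.69 over WT and from 3.19 to 4.35 over KO arrays. The part of these cells and genes in the class II differences was not tested.

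**Figure D3:**
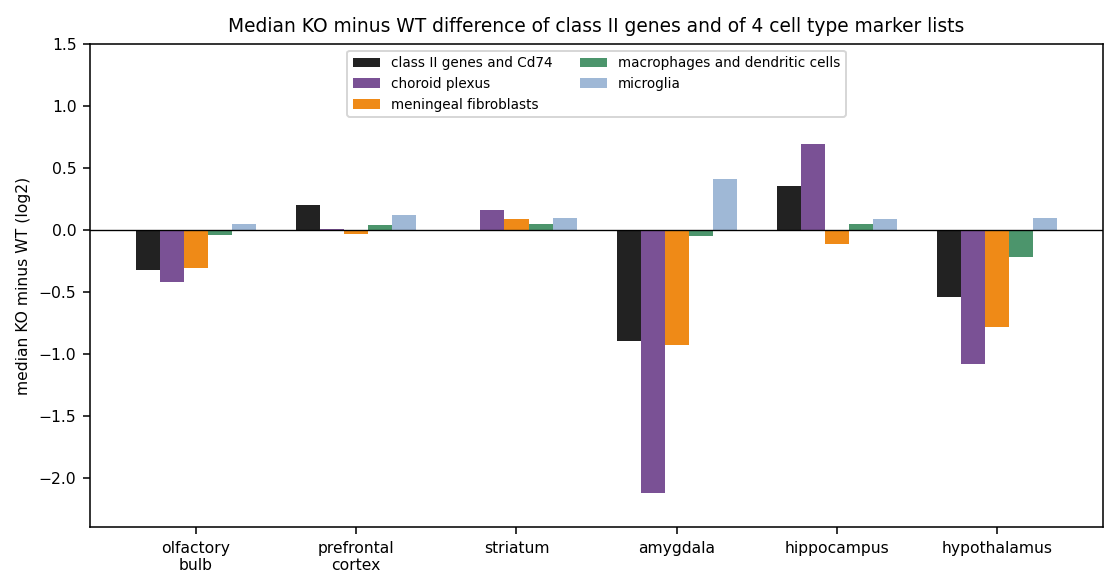
Median KO minus WT difference (log2) in each region of the class II genes with Cd74 and of 4 cell type marker lists, over genes above background on both arrays. Class II genes, choroid plexus and meningeal fibroblast markers are all below 0 in olfactory bulb, amygdala and hypothalamus, while the microglia bar is above 0 in every region.

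The lists of immune cells that can carry class II molecules did not all go the same way. The 11 microglia markers were all higher on amygdala KO (median 0.41), the reverse of the class II genes there. The list of macrophages and dendritic cells had medians of -0.22 in hypothalamus, -0.047 in amygdala and -0.045 in olfactory bulb. In prefrontal cortex its median was 0.039 and in hippocampus 0.051. These medians had the signs of the class II medians, at smaller size. In olfactory bulb and amygdala they were near the medians of all genes there (-0.044 and -0.054). In hypothalamus, prefrontal cortex and hippocampus the medians of all genes were -0.00040, -0.046 and 0.010. Members of this list 2-fold apart were Lyve1, a marker of border macrophages (-1.01 in olfactory bulb and 1.01 in hippocampus), and Flt3 (-1.05 in striatum). Of all genes 0.924% were 2-fold apart in olfactory bulb, 1.75% in hippocampus and 1.56% in striatum. Other genes of the list did not follow the dim Lyve1. Mrc1 stood at -2.19 (WT) and -2.18 (KO) in olfactory bulb and at -3.16 and -3.10 in hippocampus. Ms4a7 was higher on olfactory bulb KO (-2.05) than on WT (-2.98). In olfactory bulb 6 of the 9 genes of the list above background were lower, and in hippocampus 3 of 8. In amygdala and in prefrontal cortex 4 of 8 were lower, and in hypothalamus 6 of 8. Of the dendritic cell markers Clec9a and Cd209a were above background on 0 of 12 arrays, Ccr2 on 1 and Itgax on 3. Of 5 tested B cell markers 5 were lower in KO on the mean of the regions (median -0.10), and 0 passed. Of the B cell markers above background on both arrays, 5 of 6 were lower in olfactory bulb and 5 of 5 in hypothalamus. In amygdala 2 of 4 were lower, in hippocampus 2 of 6 and in prefrontal cortex 4 of 5.

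Scan day ran beside the class II genes too. In both regions of the first day, prefrontal cortex and hippocampus, the 4 genes were higher in KO, and on the second day H2-Aa and H2-Ab1 were lower in all 4 regions, H2-Aa being below background in striatum. H2-Ab1 had a mean difference of 0.24 on the first day and -0.49 on the second, or -0.38 without amygdala. Tap1 had the opposite course, -0.16 on the first day and 0.58 on the second, which includes its striatum value from arrays not above background. In a comparison of the days made after seeing the data, 4 of the 9 genes, H2-Aa, H2-Ab1, H2-Eb1 and Tap1, had an unadjusted p under 0.05, as did 3.55% of all genes. None passed after adjustment (limma adjusted p from 0.988 to 0.989), and neither did any other gene. Fitted within a day, 0 of all genes passed on the first, which has 2 region pairs, and 1 on the second, so that the 0 of 9 there says nothing about these genes. Each region has 1 day, so day and region cannot be told apart.

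Tap1, the transporter subunit, was dim and above background on the 10 arrays outside striatum. Its WT levels were -3.78 in olfactory bulb, -4.27 in hypothalamus, -4.00 in amygdala, -4.04 in prefrontal cortex, -3.78 in hippocampus and -5.48 in striatum, and its KO levels were -3.40, -3.67, -3.62, -4.24, -3.92 and -4.50. KO was higher in olfactory bulb (0.38), amygdala (0.38) and hypothalamus (0.60), the 3 regions where the class II genes were lower, and lower in prefrontal cortex (-0.19) and hippocampus (-0.13). With normexp background it turned lower in olfactory bulb (-0.043) and amygdala (-0.021) and stayed higher in hypothalamus (0.26). The mean difference of 0.34 (SE 0.158; limma adjusted p = 0.254) was the largest upward one of the 9 genes, and with normexp background it was -0.041. The striatum value (0.97) came from 2 arrays not above background, and without striatum the mean was 0.21.

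The immunoproteasome genes Psmb8 and Psmb9 were above background on all 12 arrays, and neither passed. Psmb8 had WT levels of -0.34 in olfactory bulb, -0.66 in hypothalamus, -0.30 in amygdala, -0.68 in prefrontal cortex, -0.39 in hippocampus and -0.54 in striatum, and KO levels of -0.28, -0.51, -0.70, -0.60, -0.38 and -0.70 in the same order. Psmb9 had WT levels of -1.05, -1.35, -1.04, -1.12, -0.96 and -1.01 and KO levels of -1.04, -1.25, -1.45, -1.35, -1.02 and -1.06. Both were lowest against WT in amygdala, Psmb8 by a difference of -0.40 and Psmb9 by -0.42; the other differences lay between -0.23 and 0.15. The mean differences were -0.045 for Psmb8 (SE 0.081; limma adjusted p = 0.769) and -0.11 for Psmb9 (SE 0.076; limma adjusted p = 0.424). The other probe of Psmb8 gave 0.058 over all regions. In amygdala it gave -0.13 (spot error 0.21), against -0.40 by the brightest probe.

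The rest of the pathway gave 0 calls as well. Of 14 tested other class I and nonclassical genes 12 had a mean above 0 (median 0.064, against -0.023 over all genes tested). Their probes may bind each other's transcripts, as that of H2-D1 may, so the 12 may not be separate observations. The 2 smallest p-values were those of H2-Bl (0.25, SE 0.054; limma adjusted p = 0.101) and H2-Q1 (0.38, SE 0.114; limma adjusted p = 0.132). In amygdala 11 of 13 of these genes were lower in KO, like H2-D1. Of 8 peptide loading genes 6 had a mean above 0 (median 0.052), and Tapbpl, whose product is related to tapasin, had the smallest p (0.083; limma adjusted p = 0.476), followed by Canx, the chaperone calnexin (0.057; limma adjusted p = 0.528). Among 7 proteasome genes Psmb7, a subunit of the constitutive proteasome core, was higher in KO in 6 of 6 regions (0.31, SE 0.059; limma adjusted p = 0.0980), where 17% of all genes went 1 way in all 6, and Psmb5 was next (0.11; limma adjusted p = 0.245).

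Class II accessory genes had means on both sides of 0, and none passed. H2-DMa, which helps load peptides onto class II molecules, was higher in KO in 6 of 6 regions (0.30, SE 0.068; limma adjusted p = 0.103), and so was Ctss, the protease cathepsin S that trims the invariant chain (0.18, SE 0.047; limma adjusted p = 0.113). The median of 11 such genes was 0.035, with 7 above 0. H2-Eb2 was 2-fold lower in hippocampus KO (-1.29) and above background on 4 arrays in all. Of 13 regulators 8 had a mean above 0 (median 0.012). Nfyc (0.39, SE 0.103; limma adjusted p = 0.117) and Nfyb (-0.29, SE 0.094; limma adjusted p = 0.147), subunits of the factor NF-Y that binds CCAAT boxes, stood on opposite sides of 0 in 6 of 6 regions each. Going 1 way in all 6 regions, as these 4 genes did, was the course of 17% of all genes. Ciita, the master regulator of class II genes, had a mean of 0.099 (SE 0.258; limma adjusted p = 0.844) and was above background on 8 arrays. Of 6 interferon gamma signalling genes 5 had a mean below 0 (median -0.11), led by Ifngr2 (-0.12; limma adjusted p = 0.245) and Socs1 (-0.16; limma adjusted p = 0.351).

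Between regions, levels were compared by the brightest probe of each gene and the mean of its WT and KO arrays. Olfactory bulb was highest for 8 of the 9 genes and striatum lowest for 7. Of these 7, H2-Aa and Tap1 had no striatum array above background, so their place there is not known. On the WT arrays alone amygdala was above olfactory bulb for H2-Aa (-3.79 against -4.03) and Psmb8 (-0.30 against -0.34). On the KO arrays hippocampus was above it for H2-Aa (-4.08 against -4.16). The 10-spot B2m probe had another order. Its prefrontal cortex levels (1.146 WT and 1.285 KO) were above those of olfactory bulb (1.122 and 1.143). Its lowest arrays were amygdala KO (0.66) and hypothalamus WT (0.69), with striatum at 0.73 and 0.75. Set against the mean of the other 5 regions over both genotypes, 5 genes were higher in olfactory bulb at a limma adjusted p under 0.05: H2-Ab1 (1.01, SE 0.206), Cd74 (0.94, SE 0.237), H2-Eb1 (0.86, SE 0.190), H2-D1 (0.41, SE 0.136) and B2m (0.37, SE 0.063). Such a p in the upward direction was reached by 25.0% of all genes. Under median scaling H2-D1 (0.25; limma adjusted p = 0.115) and B2m (0.21; limma adjusted p = 0.0689) did not pass, and without the striatum arrays H2-D1 did not either (0.26; limma adjusted p = 0.170). H2-Aa and Psmb8 passed when the amygdala WT array was left out (0.69 and 0.28). H2-Ab1 also passed the 2-fold limit, as 7.06% of all genes did, and it did not without the striatum arrays (0.71). In each of the 4 regions between these extremes 0 of 9 genes passed the p. Of all genes, 19.5% passed it upward in prefrontal cortex, 16.3% in amygdala, 23.7% in hippocampus and 12.2% in hypothalamus, and 14.4%, 31.7%, 12.8% and 18.0% did so downward.

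In striatum 7 genes passed the p downward, against 28.9% of all genes, and 4 of them were also 2-fold lower, against 9.85%: H2-Aa (-1.78, SE 0.266), H2-Ab1 (-1.64, SE 0.206), Tap1 (-1.12, SE 0.211) and H2-Eb1 (-1.08, SE 0.190). H2-Aa and Tap1 had no striatum array above background; on that bound Tap1 was at least 1.08-fold lower, and for H2-Aa no fold can be given. Cd74 (-0.95), H2-D1 (-0.79) and B2m (-0.50) were lower by less than 2-fold. With normexp background B2m (-0.61), H2-D1 (-0.78) and H2-Ab1 (-0.64) stayed lower, and Cd74 was at -0.045. H2-Aa (0.66), Tap1 (0.77) and H2-Eb1 (0.21) turned higher. The striatum values of the class II genes, Cd74 and Tap1 thus hang on the background method. Psmb8 and Psmb9 passed in no region.

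**Figure D4:**
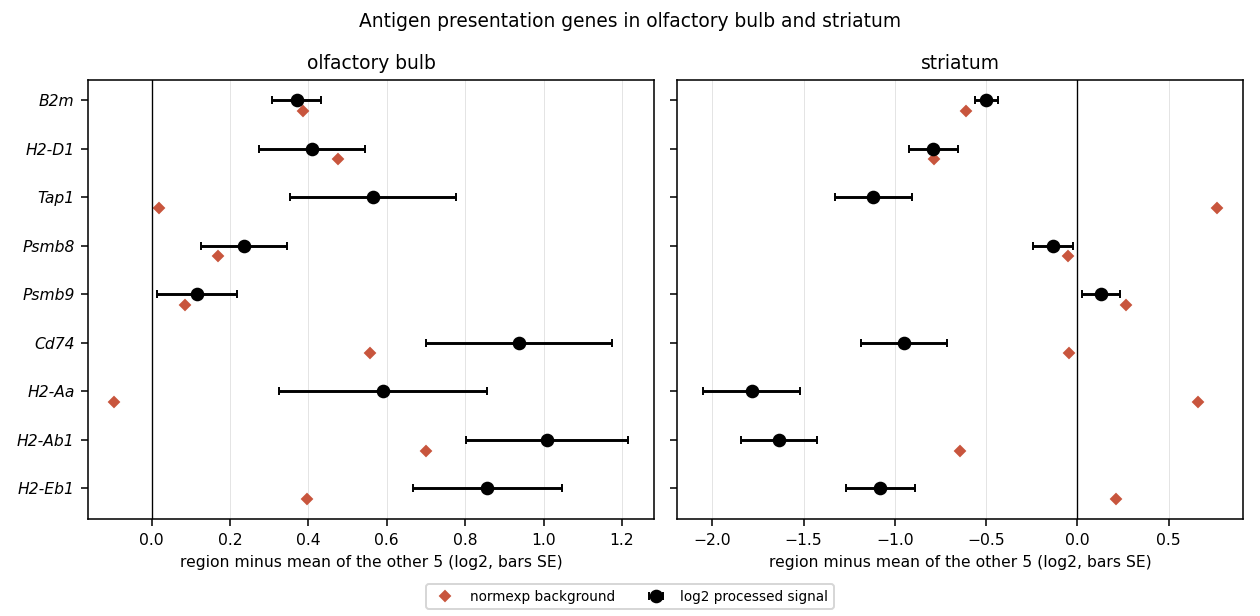
Level of each gene in olfactory bulb (left) and striatum (right) minus the mean of the other 5 regions (log2; black points with SE from the limma fit over 12 arrays), and the same with normexp background (red diamonds). The bright genes B2m and H2-D1 keep their place under both. In striatum Tap1, H2-Aa and H2-Eb1 cross 0 with normexp background, and Cd74 moves close to it.

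Most regions next to each other in level overlapped. For B2m olfactory bulb (1.97 and 2.04) lay above prefrontal cortex (1.76 and 1.89) with no overlap, and hypothalamus (1.60 and 1.70) above striatum (1.24 and 1.32) with none; prefrontal cortex overlapped hippocampus, hippocampus lay above amygdala with no overlap, and amygdala overlapped hypothalamus. For H2-D1, H2-Aa and Tap1 olfactory bulb overlapped the next region. Striatum lay below all others for H2-D1. For H2-Aa and Tap1 its values were the lowest too, but from arrays not above background, so that place is not known. For H2-Ab1, H2-Eb1 and Cd74 both olfactory bulb arrays lay above both arrays of the next region, and the 4 regions between olfactory bulb and striatum overlapped each neighbour. For Psmb9 the order was another, with hippocampus (-0.96 and -1.02) first and hypothalamus (-1.35 and -1.25) last. Marker lists differed between regions as well. In olfactory bulb 5 of 8 meningeal fibroblast markers and 4 of 8 tested macrophage and dendritic cell markers passed both rules upward. So did 4 of 12 interferon responsive and 2 of 3 red blood cell genes, against 7.06% of all genes. Choroid plexus markers went the other way there, with 4 of 8 downward (5.51% of all genes) and 1 upward. In prefrontal cortex 6 of 8 choroid plexus markers passed downward (3.02%). Upward passed 5 of 8 in hippocampus (5.11%), 3 in amygdala (1.72%) and 3 in hypothalamus (1.84%), where no class II gene passed. In striatum 4 of 8 meningeal fibroblast markers passed both downward (9.85%). The part of these lists in the region levels was not tested.

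The genes most like Cd74 over the 12 arrays, by Pearson r among 11805 named genes above background on all arrays, were Glis2 (0.941), Lyz1 (0.940), Foxd1 (0.939), Col3a1 (0.930) and H2-Ab1 (0.930). Col3a1 encodes a fibrillar collagen and is among the meningeal fibroblast markers. Those most like B2m were Esrrg (0.979), Slc38a2 (0.978), Iqsec3 (0.973), Cfl2 (0.972) and Efemp1 (0.963), with H2-D1 at rank 61 (0.911). Cd74 and B2m correlated at 0.796 with each other, and Psmb9 with neither (-0.0098 and -0.038). The 12 points share slide, scaling and region in pairs, and these values are a description.

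In the authors' deposited table of KO over WT ratios, 10 of the 14 probes, of 7 genes, were listed with 54 values. There Cd74 had a ratio of 0.506 in amygdala, 0.772 in olfactory bulb and 1.13 in hippocampus, and H2-D1 0.719 in amygdala. The largest gap between the authors' deposited table on a log2 scale and the differences above was 0.162, for the 10-spot probe of H2-Ab1 in amygdala, where some spots were marked as outliers.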

How the data were processed

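Total RNA of 6 brain regions was measured on 12 one-colour Agilent arrays, 1 per region and genotype. Spot intensity values of each array were deposited by the authors as output of Feature Extraction 9.5.3.1. Background subtraction and detrending had been applied to the processed intensity, per the file headers, and the arrays had not been scaled to each other. The authors' second deposited file holds linear ratio values, KO to WT, used here as an alternative.

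Here log2 of the processed signal minus the 75th percentile of each array over 43379 gene spots was used. Control and outlier spots (61 to 143 per array) were left out, no gene spot was saturated, and spots of a probe were averaged. The files' accessions were matched without versions to RefSeq (22951 of 41174 probes); a gene took its brightest probe. Genes well above background on at least 6 arrays were fitted with limma 3.58.1 (R 4.3.3), region as a block, Benjamini-Hochberg adjusted over all 24860 genes. Other fits set each region against the mean of the other 5, with genotype as covariate, and each region's difference against the others. Within a region there is no test, only a 2-fold rule. At-least folds set a dim group at the lowest signal well above background of each array or its own. The fits were tested on simulated data. P-values measure the spread between regions, or between the 2 arrays of a region, not between mice, and the number of arrays limits precision. Alternatives were median and quantile scaling, normexp background (offset 50; on median spot signals), filters, probe means, moderated variance, no block, the deposited ratios, and leaving out regions.

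All 10 genes with all their probes were named, as were the 5 genes most like B2m and Cd74. Of each antigen presentation pathway list the 2 of smallest p and those 2-fold apart were named. Genes 2-fold apart were also named for macrophages and dendritic cells. Those of the interferon responsive list and of the other marker lists were not all named. Ciita, Dcn, Pmch and Ttr were also named for their role, and Mrc1 and Ms4a7 were set beside Lyve1. The members and lists were chosen with earlier results of these data known.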

Additional observations from a re-analysis of the deposited data

Results flagged for a closer look

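Class II genes lay on opposite sides of 0 in 2 regions by at least 0.3 each on the log2 scale. H2-Aa differed by 0.38 in hippocampus and -1.12 in amygdala, but its hippocampus difference was 0.027 with normexp background and -0.026 with the mean of the probes, so the opposition did not hold for it there. H2-Ab1 differed by 0.36 in hippocampus and -0.81 in amygdala. H2-Eb1 differed by 0.36 in hippocampus and -0.61 in amygdala. The difference between these 2 regions was not tested, each side rests on 1 array per genotype, and the array labelled amygdala WT is the one nearest to hypothalamus WT.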

How the results depend on the processing

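With 1 array per group, only a spread between regions or genotypes is known, and H2-Aa and Tap1 are close to background. Across the regions 17 alternatives were run, and none of the 9 genes passed in those that gave it a value (15 to 17 per gene), nor did any of the 14 probes under 3. The count over all genes was 10 and changed to 17 with quantile normalization, 719 with normexp background, 165 with trend and robust variance, 727 with the authors' deposited ratios, 20 with genes above background on all 12 arrays, 2 with no region block, and between 1 and 5 when 1 region was left out. Regions of the first scan day gave 0 calls and those of the second 1 (chosen after seeing the data); limma's count at an unadjusted p under 0.05 was 5788 over all regions.

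Signs turned as follows. Psmb8 across the regions was 0.012 with median scaling, 0.0064 with the mean of the probes, between -0.083 and 0.026 when 1 region was left out (0.026 without amygdala) and 0.047 on the first scan day. Tap1 was -0.041 with normexp background. On the first scan day alone H2-Aa was 0.33, H2-Ab1 0.24, H2-Eb1 0.26, Cd74 0.20 and Tap1 -0.16, and on the second H2-D1 was -0.023. In the amygdala comparison B2m was 0.042 with median scaling. In olfactory bulb Psmb9 was -0.041 with median scaling and H2-Aa -0.096 with normexp background. Within regions, H2-Aa turned with the mean of the probes to 0.069 in olfactory bulb and -0.026 in hippocampus. With normexp background Cd74 turned to -0.22 in striatum, and H2-Aa (-0.040) and H2-Eb1 (-0.068) turned in prefrontal cortex. Tap1 (-0.043) and Psmb9 (-0.053) turned with it in olfactory bulb, and Tap1 (-0.021) in amygdala. Median scaling turned Psmb8 in hippocampus (-0.0058) and B2m in amygdala (0.15). In striatum against the other regions H2-Aa was 0.66, H2-Eb1 0.21 and Tap1 0.77 with normexp background. The cause was not tested.

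The 1 gene 2-fold apart in amygdala became 0 with median scaling, quantile normalization, normexp background and the mean of the probes. In olfactory bulb the 1 call became 0 with median scaling, with normexp background and without both striatum arrays, and 2 without the amygdala WT array. In striatum the 4 calls became 0 with normexp background and 1 with genes above background on all 12 arrays, where fewer genes were tested. Median scaling moved the median of all genes in amygdala from -0.056 to 0.16. Each region pair is already the block of the main fit.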
